A study of Gossypium bickii with 18 samples.

Results

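In germinating cotyledons of the wild Australian cotton Gossypium bickii, 146 of 43790 gene IDs had their highest transcript levels at both 24 h and 36 h after imbibition, the water uptake that starts germination. They were chosen from the deposited FPKM values (fragments mapped to a gene, scaled to its length and to the mapped fragments of the library), using the mean of 3 libraries at each time. An ID was kept when its 24 h and 36 h means were both at least 10 FPKM, both at least 2 times the means at 0 h, 12 h and 48 h, and less than 2-fold apart. The study compared 6 groups of 3 cotyledon libraries. They were seed at 0 h, for which the labels give no light condition, cotyledons at 12, 24, 36 and 48 h under light, and cotyledons at 24 h in the dark. Another table by the authors holds the 24 h light and dark libraries, and 146 of the 146 IDs are listed there. The labels name no accession or strain and do not say whether replicates came from separate plants, so p-values measure only the spread between these libraries. The files do not pair IDs with gene names, so no function is given to any ID, and the cotyledon label could not be checked against marker genes.

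In a germinating seed the cotyledons are the storage leaves. They take up water, resume metabolism on stored RNA and protein, break down their reserves and then turn into photosynthetic organs. A transcript level reflects both synthesis and decay, so a transcript that is high for a limited period can mark a passing stage of this sequence. Gossypium bickii is known for seed without pigment glands, the terpenoid-filled cavities of cotton, which appear in the cotyledons as the seed germinates. The series followed expression through germination and set light against dark. In bulk tissue, fewer cells of a type and less RNA per cell cannot be told apart.

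The median ID was near 0 FPKM at 0 h, partly raised at 12 h, high at 24 h and 36 h, and lower again at 48 h. It stood at 0.122, 0.496 and 0.103 FPKM in the libraries of 0 h, and 12 h gave 9.16, 8.47 and 8.46 FPKM. The 24 h libraries gave 34.4, 29.1 and 32.0 FPKM, those of 36 h gave 44.2, 38.3 and 36.8 FPKM, and those of 48 h gave 8.27, 8.16 and 8.85 FPKM. The libraries of 24 h and 36 h lay above all others on this measure, as the rule requires of the means. Of all FPKM in a library, the IDs together held 0.0808% ± 0.0171 in 0 h libraries, 0.626% ± 0.0774 in 12 h libraries, 2.00% ± 0.246 in 24 h libraries, 2.46% ± 0.144 in 36 h libraries and 0.528% ± 0.0242 in 48 h libraries (SD, n = 3 each). These values chose the IDs and are given without a test. Single IDs departed from the median course: the 0 h mean was under 1 FPKM in 99 IDs but at 10 FPKM or more in 9, and the 48 h mean was at 10 FPKM or more in 61. Levels at 0 h were uneven among libraries. Replicate 2 of 0 h had 60 of the IDs at 1 FPKM or more, and replicates 1 and 3 had 39 each. Replicate 2 was also the highest over the 26086 IDs at 1 FPKM or more in at least 3 libraries. Its median log2(FPKM + 1) over those was 2.11, against 1.89 in replicate 1 and 1.96 in replicate 3. In all 3 libraries of 0 h, 33 IDs were listed at 0.

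**Figure D1:**
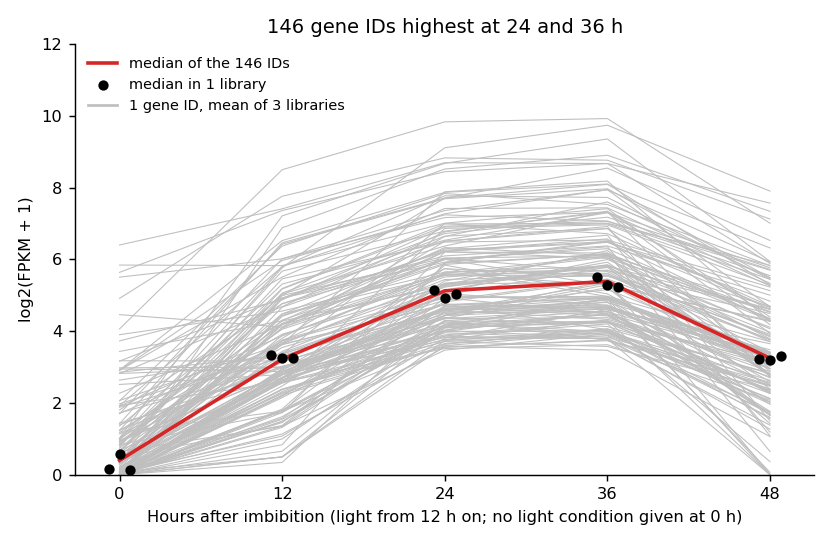
Levels of the 146 gene IDs over germination, as log2(FPKM + 1) against hours after imbibition. Each grey line joins the means of 1 ID, the red line is the median over IDs, and black points are the median in each of the 15 libraries. The library medians run from 4.91 to 5.50 at 24 h and 36 h and stay at or below 3.34 at the other times.

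The level at 24 and 36 h, taken here as the mean of both times and called the plateau, covered a wide range. It had a median of 42.1 FPKM over the IDs, with a lowest value of 10.6 and a highest of 940 FPKM. The plateau reached 100 FPKM or more in 34 IDs and stayed under 20 FPKM in 36, and the 10 highest IDs held 38.3% of the summed plateau. Gbi11G1600 was the highest. It was at 3.94, 34.0 and 9.21 FPKM in the 0 h libraries, 440, 132 and 509 FPKM at 12 h, 1028, 545 and 1157 FPKM at 24 h, 636, 964 and 1310 FPKM at 36 h and 115, 86.1 and 181 FPKM at 48 h. Its 12 h libraries varied the most in proportion after 0 h, yet each 24 h and 36 h library was above every library of the other times. Gbi07G2354, the next highest, was at 0.491, 0.620 and 0.554 FPKM at 0 h, 56.9, 54.2 and 49.1 FPKM at 12 h, 460, 589 and 605 FPKM at 24 h, 858, 945 and 754 FPKM at 36 h and 321, 206 and 188 FPKM at 48 h. Unlike Gbi11G1600, it kept more of its level at 48 h than it had reached at 12 h. Among the 20 highest IDs, Gbi05G2061 and Gbi01G1664 had the flattest plateaus. Gbi05G2061 averaged 170 ± 37.2 FPKM at 24 h and 172 ± 12.6 FPKM at 36 h (SD, n = 3 each). Gbi01G1664 averaged 413 ± 18.6 FPKM at 24 h and 406 ± 43.8 FPKM at 36 h, and it also had the highest 0 h level of the 146 IDs, at 83.5 ± 6.58 FPKM (SD, n = 3 each).

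How far the plateau stood above the other times differed among the IDs. The lower of the 24 h and 36 h means over the highest of the other 3 means had a median of 2.62, and it was under 2.5 in 63 IDs, at least 3 in 52, at least 5 in 15 and at least 10 in 1. That ID was Gbi06G2601, with a ratio of 12.8. Its libraries were at 0.296, 0.854 and 0.255 FPKM at 0 h, 10.5, 8.61 and 15 FPKM at 12 h, 336, 117 and 252 FPKM at 24 h, 364, 272 and 232 FPKM at 36 h and 13.3, 17.6 and 24.3 FPKM at 48 h. No library of 24 h or 36 h came near those of the other times. Gbi01G1903 had the next largest ratio, 8.33, but uneven replicates. It was listed at 0 in all 3 libraries of 0 h and stood at 3.66, 1.58 and 0.968 FPKM at 12 h, 20.3, 25.8 and 5.66 FPKM at 24 h, 55.5, 24.5 and 1.97 FPKM at 36 h and 0, 0 and 0.148 FPKM at 48 h. Its replicate 3 at 36 h lay below replicate 1 at 12 h, so its groups overlapped.

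**Figure D2:**
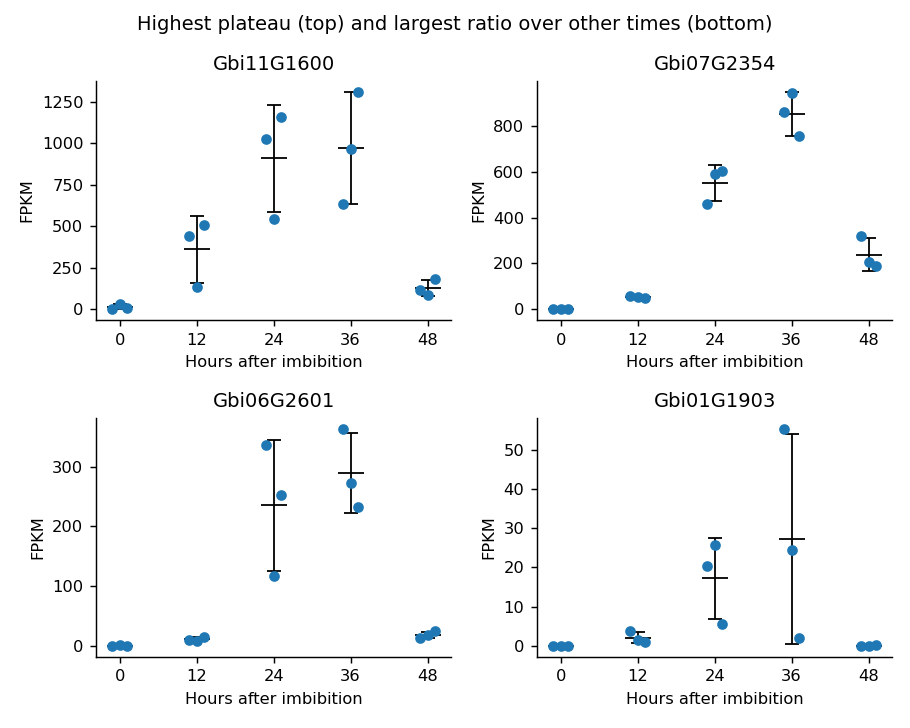
FPKM of 4 gene IDs in each library against hours after imbibition, with the mean and SD of 3 libraries in black. Gbi11G1600 and Gbi07G2354 have the highest plateaus, and Gbi06G2601 and Gbi01G1903 the largest ratios over the other times. The 36 h libraries of Gbi01G1903 spread over 1.97 to 55.5 FPKM.

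Within the plateau, the 36 h mean was above the 24 h mean in 109 IDs and below it in 37. The ratio of 36 h over 24 h had a median of 1.17 and quartiles of 0.997 and 1.40. It reached 1.5 or more in 29 IDs, while 24 h was at least 1.5 times 36 h in 5. The rule confined this ratio, so these values are a description. In 121 IDs the libraries of both times overlapped. All 36 h libraries lay above all 24 h libraries in 21 IDs, and the reverse held in 4. Of the 26086 IDs at 1 FPKM or more in at least 3 libraries, 13.9% and 11.4% were separated in those directions. Replicates were less even than in the other 8749 IDs at 10 FPKM or more at both times. The rule used these same values and the others were not matched for level, so this too is a description. The median coefficient of variation was 23.8% at 24 h and 24.9% at 36 h in the 146 IDs, against 11.4% and 15.1% in those others. Replicate 2 of 24 h was the lowest of its group in 48.6% of the 146 IDs and in 38.4% of the others. At 36 h the lowest was replicate 3, in 45.9% of the 146 IDs and in 51.3% of the others.

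The approach to the plateau and the decline from it were of much the same size in the median ID but not in single IDs. The rule held the 12 h and 48 h means under the same upper limit, so this likeness is a description. The median level was 28.0% of the plateau at 12 h (quartiles 14.3% and 36.6%) and 27.0% at 48 h (quartiles 13.7% and 35.0%), and 0.597% at 0 h. The 12 h mean was above the 0 h mean in 142 IDs and below it in 4, which were Gbi03G2891, Gbi08G2579, Gbi13G0535 and Gbi02G1509. The median log2 difference of 12 h over 0 h was 2.38 on the log2(FPKM + 1) scale and 4.54 with 0.1 in place of 1, because so many IDs were near 0 at 0 h. Over all 26086 IDs it was 0.40 on the log2(FPKM + 1) scale. The 48 h mean was above the 12 h mean in 72 IDs and below it in 74. Both stood at 25% of the plateau or more in 55 IDs, only 12 h did in 35, only 48 h did in 23, and neither did in 33. In 89 IDs the 48 h mean was within 2-fold of the 12 h mean. It was more than 5 times the 12 h mean in 12 IDs and under 0.2 times in 11.

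**Figure D3:**
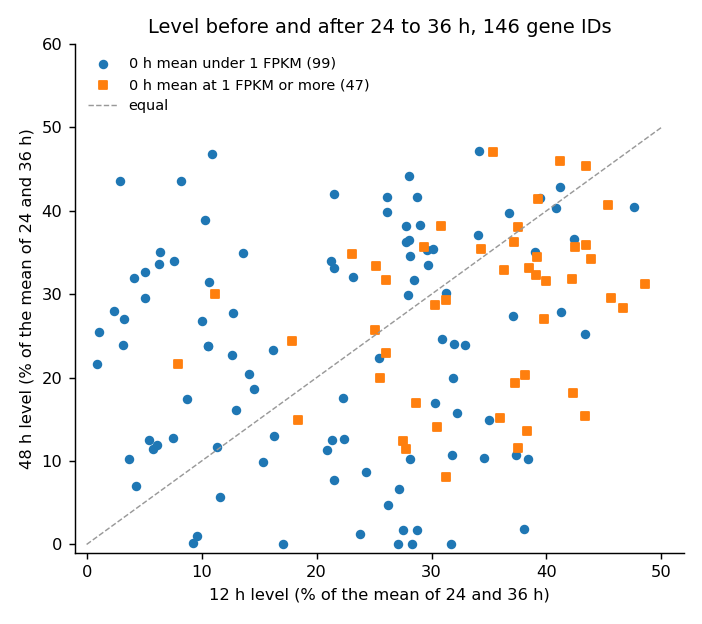
Level at 48 h against level at 12 h for the 146 gene IDs, each as a percentage of the mean of 24 h and 36 h. Blue circles are the 99 IDs with a 0 h mean under 1 FPKM, orange squares are the other 47, and the dashed line marks equal levels. The points fill the range below 50% on both axes, which the rule sets, and lie on both sides of the line.

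IDs at the ends of these ranges, some chosen after their values were seen, show how different the courses were. Gbi07G1807 was late. It was listed at 0 in the 3 libraries of 0 h and stood at 0.243, 0.518 and 0.0477 FPKM at 12 h, 27.6, 21.9 and 18.6 FPKM at 24 h, 62.0, 48.7 and 7.45 FPKM at 36 h and 4.78, 4.62 and 10.8 FPKM at 48 h. Its replicate 3 at 36 h was below replicate 3 at 48 h. Gbi03G1633 was confined to the middle of the course, at 0 in every library of 0 h and 48 h. In between it stood at 8.04, 2.85 and 7.01 FPKM at 12 h, 19.0, 14.3 and 12.5 FPKM at 24 h and 39.2, 25.3 and 22.2 FPKM at 36 h. With Gbi13G5034 and Gbi13G3448 it made 3 IDs listed at 0 in all 48 h libraries, and 0 IDs were so listed at 12 h.

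Among the 47 IDs with at least 1 FPKM at both 0 h and 12 h, the step to 12 h differed widely. Gbi11G4202 had the largest ratio of 12 h over 0 h, 142, with 201, 95.1 and 146 FPKM at 12 h against 0.615, 2.33 and 0.156 FPKM at 0 h. Gbi03G1028 followed with a ratio of 53.8. Its 12 h libraries were at 64.1, 53.7 and 46.7 FPKM, against 0, 3.06 and 0 FPKM at 0 h, so that its 0 h mean comes from replicate 2 alone. At the other end, Gbi08G2579 averaged 16.3 ± 7.27 FPKM at 12 h against 21.0 ± 6.86 FPKM at 0 h, a ratio of 0.776, before its plateau of 98.6 ± 21.7 FPKM at 24 h and 193 ± 60.3 FPKM at 36 h (SD, n = 3 each). Gbi02G1509 averaged 6.34 ± 1.79 FPKM at 12 h against 6.72 ± 0.330 FPKM at 0 h, a ratio of 0.944. For these last IDs the 12 h and 0 h libraries overlapped, so their difference was within the spread between libraries.

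The edge of the rule cuts through a continuous range. Just inside the 2-fold limit were Gbi12G1778, with a lower plateau mean of 23.2 FPKM over 11.6 FPKM at 48 h (ratio 2.01), and Gbi08G2236, with 433 FPKM over 215 FPKM at 12 h (ratio 2.01). Just outside were Gbi01G2729, with 11.5 FPKM over 5.74 FPKM at 48 h, and Gbi12G1203, with 13.0 FPKM over 6.52 FPKM at 48 h (both 2.00, just under the limit). At the 10 FPKM limit, Gbi06G1348 was inside with 10.1 FPKM at 36 h and Gbi11G0374 was outside with 9.94 FPKM at 36 h. Every library of 24 h and 36 h lay above every library of the other times in 125 of the 146 IDs, and in 2.88% of the 26086 IDs at 1 FPKM or more in at least 3 libraries. The rule used these libraries, so the count supports nothing. Of the 21 IDs with overlap, 13 overlapped with 12 h, 14 with 48 h and 3 with 0 h. When each of the 15 libraries was left out in turn, 76 IDs met the rule every time and 70 failed it at least 1 time. The 76 had a median ratio of 3.02 over the other times, and the 70 had 2.26. With the 10 FPKM limit and the 2-fold limit asked of every single library in place of the means, 22 IDs remained, all among the 146. The ratio of 24 h to 36 h was still taken from the means.

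The IDs were spread over all 13 numbered ID series of the files (Gbi01 to Gbi13). Those starting Gbi13 were the most numerous, with 21 IDs, or 14.4% of the 146, against 13.7% of the 8895 IDs at 10 FPKM or more at 24 h and 36 h. Those starting Gbi10 made up 11.0% against 7.22%, and those starting Gbi12 made up 4.79% against 8.26%. Of 92 IDs starting Gbisc at that level, 0 were among the 146. The files give no positions, so these are shares of IDs and not of a mapped region. In 9 pairs, made of 15 IDs, the ID numbers were at most 5 apart. Gbi08G1384 and Gbi08G1387 moved together almost exactly, with plateaus of 214 and 24.5 FPKM and a log2 ratio of 3.14 with an SD of 0.0324 over the 6 libraries of 24 h and 36 h. For Gbi08G1807 and Gbi08G1808, with plateaus of 63.8 and 421 FPKM, the log2 ratio was -2.72 with an SD of 0.0898. In the other 7 pairs the SD of the log2 ratio was 0.131 or more. Whether reads are shared between near-identical copies in such pairs was not tested, so the separate levels of these 4 IDs are uncertain.

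The same 24 h light libraries were quantified separately in the light-dark table. Over the 146 IDs, the median log2 ratio of that table over the time course was 0.31, against 0.32 over the other 8749 IDs at 10 FPKM or more. More than 2-fold from the latter median lay 15 of the 146 IDs (10.3%) and 8.38% of the others. Of the 15 IDs, 14 were lower in the light-dark table. Gbi08G1807 averaged 58.5 FPKM in the time course and 0.149 FPKM in the light-dark table, and Gbi08G1384 stood at 5.76 ± 4.34 FPKM in its light libraries (SD, n = 3). These levels come from tables normalized separately, but the 15 IDs lie more than 2-fold away from the median ratio between them. The light-dark table also lists 5511 IDs not starting with Gbi, which the time course lacks. Whether this difference in listed IDs changed the levels of single IDs was not tested. The time-course level of the 15 IDs is uncertain. No call given below is of an ID in this group of 15.

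Most of the 146 IDs were also expressed in the dark at 24 h, at levels in the range of those in light. This comparison asks what light changes when the time is held fixed. The dark libraries took no part in choosing the IDs, but the light libraries are the 24 h libraries that the rule required to be high. In the light-dark table the median ID stood at 43.8, 35.1 and 37.5 FPKM in the light libraries and at 41.3, 43.8 and 41.5 FPKM in the dark libraries, so the groups overlapped. The mean was at 10 FPKM or more in 135 IDs in light and in 124 IDs in the dark, or 92.5% and 84.9%, beside 93.7% and 89.0% of the other 8749 IDs. Both means were under 10 FPKM in 10 IDs, and only the dark mean was in 12. The 11 IDs under 10 FPKM in light met that limit at 24 h in the time course. All 11 belong to the 15 IDs set apart above, so their low dark level cannot be read as an effect of darkness. The light mean was the higher in 86 IDs and the dark mean in 60.

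In all, 139 of the 146 IDs passed the filter of at least 1 FPKM in 3 of the 6 libraries. The other 7 were low or at 0 in most of these libraries, though at 10 FPKM or more at 24 h in the time course. All 7 belong to the 15 IDs set apart above. Of the 139, 14 were called in light against dark by limma on log2(FPKM + 1) (Benjamini-Hochberg adjusted p under 0.05 over all 23059 IDs tested and a log2 difference of at least 1). The same fit called 3.15% of all IDs tested. All IDs tested were drawn from a list that includes 5511 IDs not starting with Gbi, which the rule could not choose. Of the 14, 12 were higher in light and 2 lower, beside 2.55% and 0.607% of all IDs. The median log2 difference of the 139 was 0.12, and that of all IDs was 0.13. The quartiles of the 139 were -0.37 and 0.46, against -0.18 and 0.44 for all IDs, and the log2 difference was 1 or more in size in 17.3% of the 139 and in 7.74% of all IDs. The light libraries did not overlap the dark ones in 35 of the 139 that were higher in light and in 19 that were lower. The shares over all IDs were 23.5% and 11.8%. Of the other IDs at 10 FPKM or more at 24 h and 36 h, 8472 were tested and 3.94% called. Without overlap, 1993 of these 8472 were higher in light and 1511 lower.

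**Figure D4:**
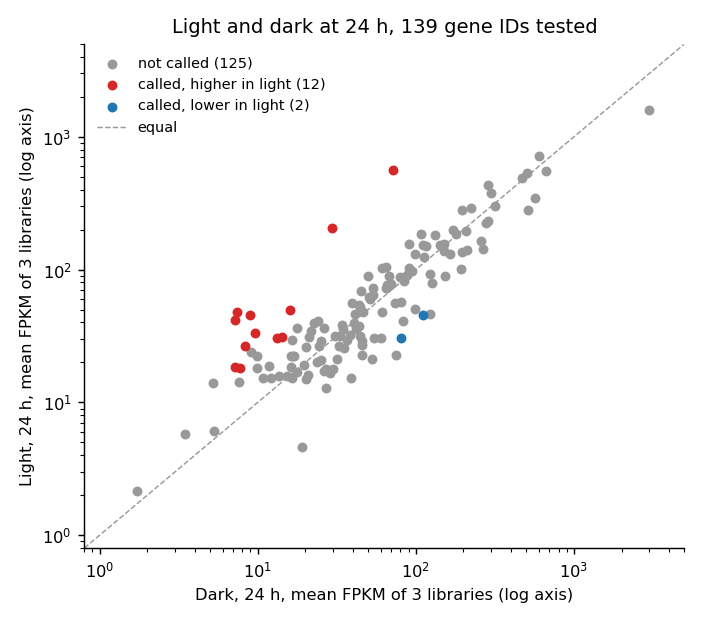
Mean FPKM of 3 light libraries against mean FPKM of 3 dark libraries at 24 h, both on log axes, for the 139 gene IDs tested. Red points are the 12 IDs called higher in light, blue points the 2 called lower, and grey points the rest. Most points lie along the dashed line of equal levels, and those called higher in light lie above it.

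Gbi07G2354, the next to highest of the IDs in the time course, differed the most. It stood at 489, 589 and 604 FPKM in the light libraries, against 80.0, 70.0 and 64.2 FPKM in the dark libraries, a log2 difference of 2.96 (SE 0.14, limma adjusted p = 0.000287). Gbi03G2891 was at 222, 266 and 127 FPKM in light, against 24.6, 29.8 and 33.8 FPKM in the dark, a log2 difference of 2.71 (SE 0.27, limma adjusted p = 0.00372). In both, the lowest light library was well above the highest dark one. The time course of Gbi03G2891 was uneven, at 71.6, 50.1 and 386 FPKM at 36 h, and it no longer met the rule without replicate 3 of 36 h, replicate 2 of 24 h or replicate 3 of 0 h. Gbi03G1633, listed at 0 at both 0 h and 48 h in the time course, was lower in light, at 37.4, 29.5 and 24.5 FPKM against 88.2, 79.7 and 75.5 FPKM in the dark. Its log2 difference was -1.40 (SE 0.17, limma adjusted p = 0.00697). It too no longer met the rule without any one of 3 libraries, replicate 1 of 24 h, replicate 2 of 36 h or replicate 3 of 36 h. Gbi10G2757 was at 53.7, 37.7 and 44.4 FPKM in light, against 138, 110 and 83.5 FPKM in the dark, with a log2 difference of -1.26 (SE 0.21, limma adjusted p = 0.0225). Light and dark libraries did not overlap in either ID. Gbi11G1600, with the highest plateau, was at 1817, 971 and 2000 FPKM in light, against 3694, 2895 and 2405 FPKM in the dark. Its log2 difference of -0.95 (SE 0.30) did not pass the test (limma adjusted p = 0.0909).

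**Figure D5:**
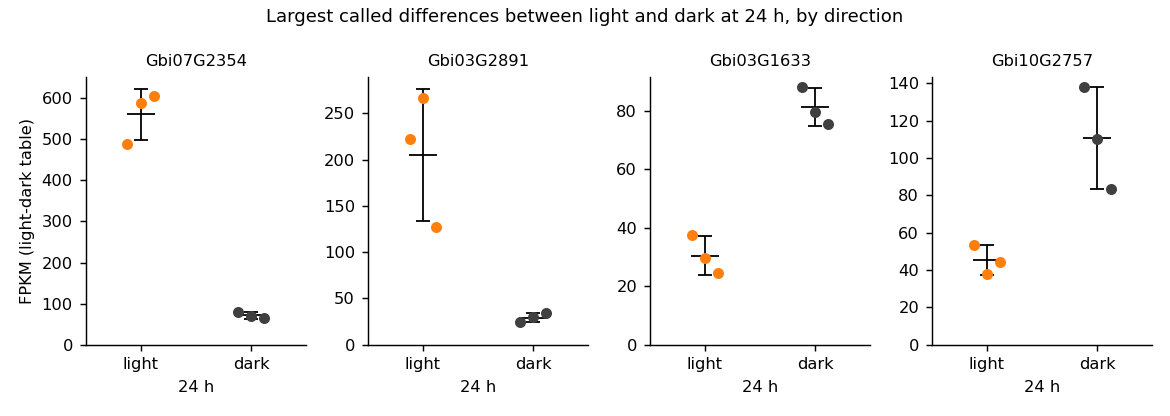
FPKM in each light library (orange) and each dark library (dark grey) at 24 h for 4 gene IDs, with the mean and SD of 3 libraries in black. Gbi07G2354 and Gbi03G2891 are higher in light, and Gbi03G1633 and Gbi10G2757 are lower. In each of the 4 IDs the light and dark libraries are apart.

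The number called rested on every library. It was 8, 8 and 7 without light replicates 1, 2 and 3, and 9, 6 and 22 without dark replicates 1, 2 and 3. All 14 kept their direction in these 6 fits, and 5 were called in each of them. These were Gbi07G2354, Gbi03G2891 and Gbi03G1633 and, named after their values were seen, Gbi01G0095 and Gbi13G0535. Gbi10G2757 was called only without dark replicate 3, and its adjusted p ran from 0.00939 to 0.101 over all settings. The median of the 139 IDs was -0.031 after median-of-ratios scaling, where that of all IDs was -0.0026, so no general shift with light is given. Calls over all IDs were higher in light in 587 of 727 as deposited, in 420 of 625 after that scaling and in 401 of 628 after quantile normalization. The light libraries are the 24 h libraries that chose the IDs for high values, so the light side is not independent of the rule. When IDs were chosen at 36 h alone, without any 24 h value, 395 met the rule, including the 146. Of these, 349 were tested and 30 called (8.60%, beside 3.15% of all IDs), 19 higher and 11 lower in light, with a median log2 difference of -0.10. With the 146 taken out of that list, 210 were tested and 16 called (7.62%), 7 higher and 9 lower in light. Their median log2 difference was -0.31, with 75 IDs above 0 and 135 below, against 14218 above and 8841 below over all IDs tested. Other scalings were not run for the lists chosen at 36 h, so no direction is given for them.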

How the data were processed

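The members and settings were chosen with earlier results of these data known. Per the submitters' processing notes, Trimmomatic 0.36, HISAT2 2.0.4 and HTSeq 0.6.0 were used, with no settings. The genome build, annotation and strand handling were not given in the sources used here. Both tables hold FPKM deposited by the authors, per the file headers. Columns were matched to samples by name. The 24 h columns of the time course do not name light or dark and were taken as light. Their replicate deviations correlated across 14413 IDs at 0.791 to 0.818 with same-numbered light columns of the other table, against -0.0969 to 0.115 for its dark columns. Summed FPKM per library was 511842 to 617604 in the time course. Absolute depth is unknown. Low values of the light-dark table share steps of whole fragments, which put its other libraries at 1.06 to 1.16 times the depth of dark replicate 1. The time course had no such steps, so no counting intervals are given.

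The rule was applied to means of 3 libraries. Light was compared with dark in limma 3.58.1 (R 4.3.3) on log2(FPKM + 1), with group means, moderated variances with a trend, and Benjamini-Hochberg adjustment over all 23059 IDs at 1 FPKM or more in at least 3 libraries, two-sided. The log2(FPKM + 1) scale understates changes of IDs with low values. The fit was tested on simulated data. IDs were named by extremes fixed as a rule: the highest plateaus, largest ratios, flattest plateaus, thresholds' neighbours, 12 h over 0 h, and light against dark. Those outside it are Gbi07G1807, Gbi03G1633 in the time course, the neighbouring pairs and members of counts of 5 or fewer. Tables were compared only within themselves unless stated. Alternatives covered the pseudocount, filter, scaling, thresholds, replicate block and each library left out. No gene list could be matched, since the files do not pair IDs with names.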

Additional observations from a re-analysis of the deposited data

How the results depend on the processing

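The number of IDs that met the rule was 22 with the 10 FPKM and 2-fold limits required of every library. It was 366 at 1.5 times, 52 at 3 times and 395 without the 24 h columns, and 131 to 168 with each library left out. Other scalings, minimum levels and the median in place of the mean kept it within 1.5 times. The median log2 difference of 12 h over 0 h was 4.54 with a pseudocount of 0.1, 3.00 after TPM rescaling, 2.19 with median-of-ratios and 2.16 with quantile normalization (2.23 to 2.55 with each library left out). For 48 h over 0 h it was 2.38, and 4.24, 2.93, 2.20 and 1.59 under those settings in that order (2.35 to 2.41). For 48 h over 12 h it was -0.026, with -0.094 after TPM rescaling and -0.26 after quantile normalization. It changed sign among the fits that left out a library (-0.16 to 0.093), so no direction is given. For 36 h over 24 h it was 0.16 and moved by less than 1 SD of the libraries under every setting run (0.10 to 0.25 with each library left out).

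In light against dark, 312 IDs in all and 9 of the 146 were called with no filter, 1103 in all with no fold minimum, and 30 when chosen at 36 h alone. Leaving out each library gave 205 to 2153 in all and 6 to 22 of the 146. The median log2 difference was -0.031 after median-of-ratios scaling, -0.10 for the IDs chosen at 36 h alone, and 0.019 to 0.18 with each library left out. In a fit with a replicate block, 701 IDs in all and 14 of the 146 were called, 13 of them the same. Same-numbered light and dark libraries correlated in their deviations at -0.0912, 0.0996 and 0.0522, and different-numbered ones at -0.158 to 0.132. No strong shared effect of the replicate number was seen. With 3 libraries in each group this cannot settle whether the samples were paired, and the labels do not say. Gbi10G2757 lost its call with no filter and in 5 of the fits without 1 library. The causes were not tested. Unknown depth limits what can be said of IDs at low FPKM.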
